A study of Mus musculus with 19 samples.

Results

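The 5 embryos described here are morulae that were not knockouts (KO): 2 from matings of mice heterozygous for a Gabpb1 deletion and 3 from matings of mice heterozygous for an Alyref deletion, out of 19 single-embryo libraries. They were chosen by their labels alone. Per the labels they are B6D2F1 embryos made by in vitro fertilisation, grown in KSOM, a culture medium for preimplantation embryos, at 37 °C under 5% CO2, and taken 96 hours after insemination. Each embryo is WT or heterozygous at the gene of its cross, and which of these it is was not given. An embryo counted as KO where its library held no reads from the deleted stretch, so the non-KO calls rest on the same libraries as the expression values. The remaining libraries are 5 KO morulae, 3 from the Gabpb1 cross and 2 from the Alyref cross, and 9 blastocysts, 3 from each cross and 3 from WT parents, none of them KO. All were taken at the same hour. The labels tie no embryo to a litter, fertilisation or sequencing run, so a difference of cross cannot be told apart from one of batch, and p-values measure only the spread between these embryos.

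In the late mouse morula the outer cells become a polarised epithelium, the trophectoderm. Keratin filaments and desmosomes brace it, tight junctions seal it, and sodium pumps with aquaporin water channels move fluid inwards until a cavity opens, a step called cavitation. The enclosed cells form the inner cell mass, where Nanog marks the future epiblast and Gata6 the future primitive endoderm. Gabpb1 encodes a subunit of the ETS-family transcription factor GABP, and Alyref an adaptor for export of mRNA from the nucleus.

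The 5 libraries held 12945400 to 19158579 gene counts. Counts of the cross genes overlapped between the crosses: Alyref stood at 288 and 185 CPM (counts scaled to the library total) in Gabpb1 cross morulae 1 and 2 and at 210, 291 and 162 CPM in Alyref cross morulae 1, 2 and 3, and Gabpb1 at 93.8 and 83.3 against 106, 93.6 and 53.1 CPM. Transcripts of 4 Y-linked genes summed to 237 CPM in Gabpb1 morula 1 and 225 CPM in Alyref morula 2 and to at most 0.13 CPM in the other 3, so each cross held both patterns. In Alyref morula 2 the ERCC spike-in RNA, added in equal amount to each lysate, took 1.54% of counts against 0.59% to 0.73% in the other 4. The log2 ratio of gene to spike-in counts was 7.31 ± 0.02 (SD, n = 2) in the Gabpb1 cross and 6.83 ± 0.73 (SD, n = 3) in the Alyref cross, a difference of 0.48 (exact two-sided permutation test over 10 splits, p = 0.7, where 0.1 is the smallest possible) that shrank to 0.07 without Alyref morula 2. Markers of cumulus and granulosa cells, which surround the oocyte, summed to 8.25 and 15.6 CPM in the Gabpb1 cross and 12.3 to 22.4 CPM in the Alyref cross, and 7 of those 14 genes had 0 counts in all 5 embryos. Sperm markers summed to at most 1.37 CPM.

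On a stage axis both Gabpb1 cross morulae lay nearer to the blastocysts than any Alyref cross morula did. The stage position was computed from log2(CPM + 1) of the 18410 tested genes, where 0 is the mean of the 5 KO morulae and 1 the mean of the 9 blastocysts. None of the 5 embryos placed on it served to build it, though stage and KO genotype cannot be told apart along it. Gabpb1 morulae 1 and 2 stood at 0.70 and 0.58. Alyref morulae 1, 2 and 3 stood at 0.08, -0.23 and 0.54, so the third lay just under the Gabpb1 cross and the first 2 among the KO morulae, which ran from -0.25 to 0.36. The blastocysts, which unlike these 5 embryos served to build the axis, ran from 0.71 to 1.15, with Gabpb1 morula 1 just below the lowest. That order depended on the axis. With 3 WT blastocysts and 2 Alyref KO morulae as ends Gabpb1 morula 1 stood at 0.686 and the lowest blastocyst at 0.675. With 9 blastocysts and 3 Gabpb1 KO morulae as ends they stood at 0.711 and 0.709. The group means were 0.64 ± 0.09 (SD, n = 2) and 0.13 ± 0.39 (SD, n = 3), a difference of 0.51 that became 0.71 without Alyref morula 3 and 0.33 without Alyref morula 2. With Gabpb1 KO morulae alone as the lower end the groups overlapped, Alyref morula 3 standing at 0.593, just above Gabpb1 morula 2 at 0.592.

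**Figure D1:**
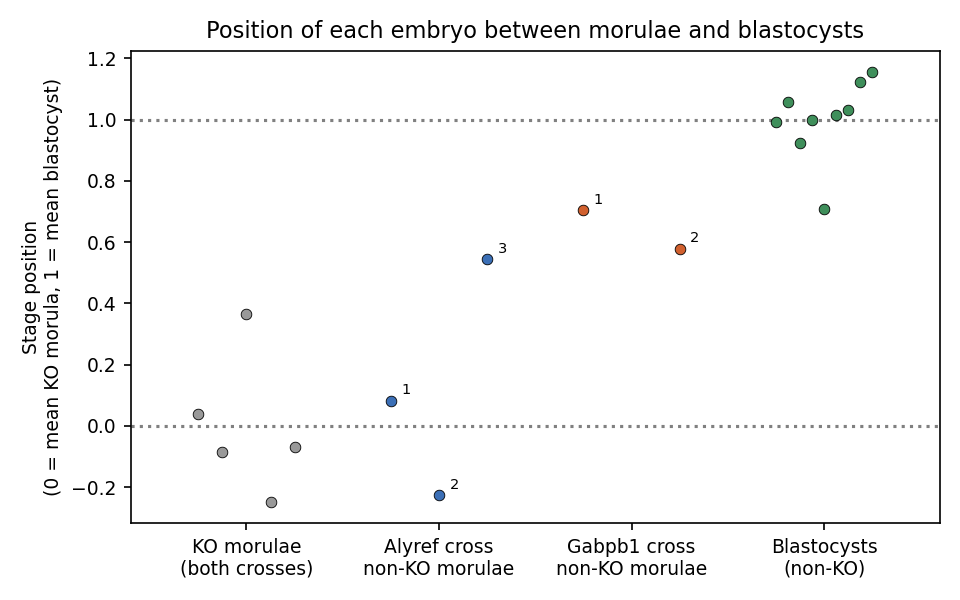
Stage position of each embryo (vertical axis, no unit; 0 = mean of 5 KO morulae, 1 = mean of 9 blastocysts, dotted lines) by group; each point is 1 embryo and the digits are replicate numbers. Both Gabpb1 cross morulae (0.58 and 0.70) lie above the 3 Alyref cross morulae, of which the third (0.54) is close to them.

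Counted gene by gene, Gabpb1 morula 1 was again the most blastocyst-like, while Gabpb1 morula 2 and Alyref morula 3 changed places between counts. Of all tested genes, 75.0% and 62.7% were within the range of the 9 blastocysts in Gabpb1 morulae 1 and 2, against 50.8%, 41.2% and 71.7% in Alyref morulae 1, 2 and 3. Among the 3001 genes higher in blastocysts than in KO morulae (edgeR's quasi-likelihood (QL) test, adjusted p under 0.05, 16.3% of genes tested), these shares were 70.2% and 55.0% against 29.7%, 23.1% and 52.5%. Among the 3239 genes lower in blastocysts (17.6% of genes tested) they were 67.1% and 56.1% against 28.99%, 21.7% and 58.1%. Alyref morula 3 was thus between the other 2 of its cross and Gabpb1 morula 1 by each of these counts. Against the mean of the WT blastocysts, the median size of the log2 difference was 0.30 and 0.38 in the Gabpb1 cross and 0.51, 0.66 and 0.31 in the Alyref cross, so by that measure Alyref morula 3 was closer to a blastocyst than Gabpb1 morula 2.

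Between the crosses, 342 of 18410 genes were called different (1.86%) by edgeR's QL test with Benjamini-Hochberg (BH) adjustment, 218 higher (1.18%) and 124 lower (0.674%) in the Gabpb1 cross. All 342 had embryos of one cross beyond every embryo of the other, an arrangement (here called separate groups, judged on CPM) that 36.1% of tested genes showed. Leaving out Alyref morula 1 or Alyref morula 2 ended every call, leaving out Gabpb1 morula 2 left 1 gene, Wls, leaving out Gabpb1 morula 1 gave 96 genes and leaving out Alyref morula 3 gave 2435. The 5 morulae fitted without the other 14 libraries gave 0 genes, with 2329 at an unadjusted p under 0.05. Scaling by the spike-in gave 2 genes, Plxdc2 and Wls, both higher, and shifted the median log2 fold change of all genes from -0.03 to 0.39. Every call named below belongs to the 342 and carries these limits.

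The called genes mostly followed the stage axis. Of the 218 genes higher in the Gabpb1 cross, 170 (78.0%) were also higher in blastocysts than in KO morulae, 114 of them by the test, while 12 were called lower there. Of the 124 lower genes 13 (10.5%) were higher in blastocysts and 73 were called lower. Over all genes tested 49.2% were higher in blastocysts. Read the other way, the Gabpb1 cross had the higher fitted level at 79.1% of the 3001 genes higher in blastocysts, with a median log2 difference between crosses of 0.56, and at 19.98% of the 3239 genes lower in blastocysts, with a median of -0.63, against 47.8% and -0.03 over all genes. Across the 18410 genes, which are not independent, Pearson's r between both fold changes was 0.44 and Spearman's rho 0.44; no library enters both, although 1 fit gave both.

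**Figure D2:**
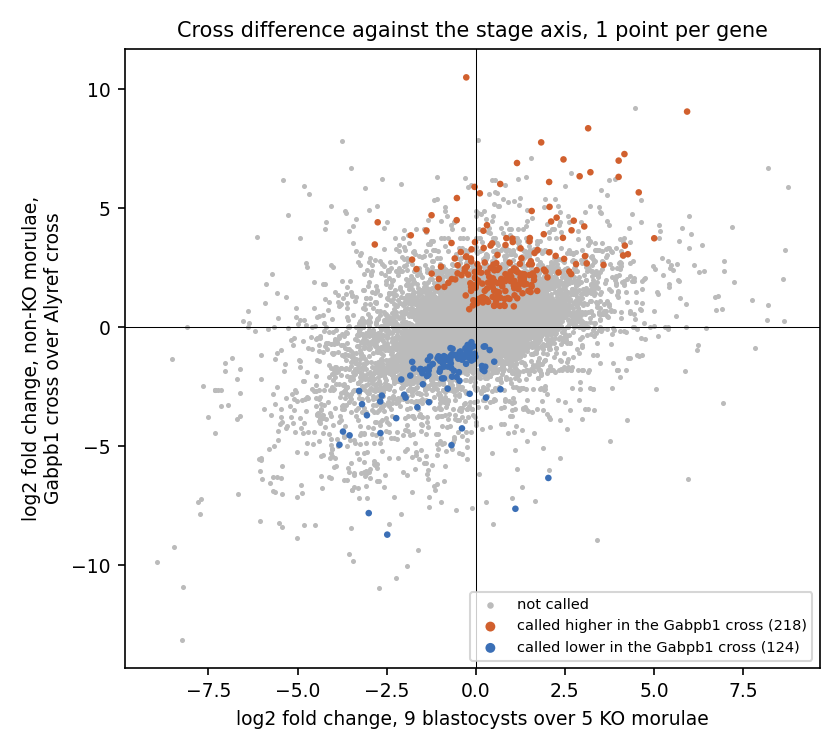
Each point is 1 of 18410 genes: the log2 fold change of 9 blastocysts over 5 KO morulae (horizontal) against that of 2 Gabpb1 cross over 3 Alyref cross non-KO morulae (vertical). The 218 genes called higher in the Gabpb1 cross (orange) lie mostly right of 0 and the 124 called lower (blue) mostly left of 0.

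Of 11 listed tight junction genes 10 had a positive log2 fold change (Gabpb1 over Alyref cross) and 2 were called, with a list median of 0.95. Over all genes tested 47.8% had a positive fold change and 1.18% were called higher. The counts of the lists below are to be read beside these shares too. Cldn4 on chromosome 5, which encodes a claudin strand protein, stood at 378 and 722 CPM in the Gabpb1 cross and at 197, 205 and 247 CPM in the Alyref cross. No embryos overlapped, the blastocysts ran from 355 to 510 CPM, and the gene was called (log2 fold change 1.34, SE 0.28, adjusted p = 0.0334). Cldn7, another claudin, stood at 473 and 526 CPM against 207, 177 and 315 CPM, again without overlap, which passed the test (log2 fold change 1.10, SE 0.24, adjusted p = 0.0381). KO morulae of the crosses were also apart for Cldn4 and Cldn7. For Cldn7 they stood at 399, 452 and 377 CPM (Gabpb1 KO) against 234 and 261 CPM (Alyref KO), with blastocysts from 374 to 712 CPM. Cldn6 stood at 87.9 and 204 CPM against 8.58, 10.1 and 40.8 CPM and F11r, which encodes the junction adhesion protein JAM-A, at 323 and 244 against 173, 139 and 171 CPM. Both had separate groups, yet neither passed the test (adjusted p = 0.0809 and 0.0519). The scaffold gene Tjp1 (ZO-1) overlapped, with 32.4 and 24.0 CPM against 29.5, 31.9 and 38.4 CPM.

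All 11 genes of the keratin and desmosome list had positive fold changes (47.8% of all genes tested) and 1 was called (1.18% called higher). Of the 11, 7 had separate groups, as had 17.9% of all tested genes in that direction. The median log2 fold change was 1.54, rising to 2.79 without Alyref morula 3 and falling to 0.95 without Gabpb1 morula 2. Krt7, a simple-epithelium keratin, stood at 37.4 and 43.2 CPM in the Gabpb1 cross and 1.14, 0.42 and 7.25 CPM in the Alyref cross, with blastocysts from 12.3 to 87.4 CPM. Both Gabpb1 cross embryos were within the blastocyst range and no Alyref cross embryo was (log2 fold change 3.76, SE 0.84, adjusted p = 0.0392). The filament partners Krt8 and Krt18 separated the groups without passing the test. Krt8 stood at 1567 and 961 CPM against 171, 184 and 734 CPM (log2 fold change 1.80, SE 0.63, adjusted p = 0.123), and Krt18 at 2069 and 1336 CPM against 237, 254 and 907 CPM (1.87, SE 0.80, adjusted p = 0.184). In both genes Alyref morula 3 stood several-fold above the other 2 of its cross. The desmosomal cadherin gene Dsc2 was more extreme, at 70.5 and 49.6 CPM against 0.11, 0 and 32.3 CPM, while Dsp (desmoplakin) overlapped at 75.6 and 55.3 against 19.9, 19.99 and 77.7 CPM. Jup, which encodes plakoglobin, stood at 37.4 and 81.2 against 13.4, 15.5 and 32.4 CPM (adjusted p = 0.0504).

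Of the pumps and channels, 9 of 14 listed genes were tested, 7 had positive fold changes (47.8% of all genes tested) and 0 were called. At an unadjusted p under 0.05 there were 4 positive and 1 negative, beside 4129 of either sign among the 18410 genes tested. The median was 0.98 (2.14 without Alyref morula 3). Atp1b1, which encodes a beta subunit of the sodium pump, stood at 109 and 152 CPM in the Gabpb1 cross and at 36.8, 18.1 and 55.3 CPM in the Alyref cross (log2 fold change 1.83, SE 0.65, adjusted p = 0.128). The groups were separate. The water channels went different ways. Aqp8 stood at 18.6 and 13.1 CPM in the Gabpb1 cross and at 0, 0 and 2.33 CPM in the Alyref cross, with 13.9 to 99.96 CPM in blastocysts (log2 fold change 4.32, SE 1.19, adjusted p = 0.0663). Aqp9 stood at 55.6 and 69.2 CPM against 116, 244 and 57.4 CPM (the negative one at an unadjusted p under 0.05, log2 fold change -1.16, adjusted p = 0.167) and Aqp3 at 229 and 173 against 222, 321 and 105 CPM, both overlapping.

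Among 14 trophectoderm transcription factors 11 had positive fold changes (47.8% of all genes tested) and 1, Klf6, was called (1.18% called higher). The median was 1.04, rising to 2.36 without Alyref morula 3 and falling to 0.47 without Gabpb1 morula 1. Klf6, a zinc finger factor, stood at 227 and 172 CPM in the Gabpb1 cross and 33.6, 11.4 and 50.9 CPM in the Alyref cross (log2 fold change 2.64, SE 0.57, adjusted p = 0.0361). Klf6 was not called on the stage axis (log2 fold change 0.49, adjusted p = 0.298, edgeR's QL test). Its KO morulae ran from 30.0 to 158 CPM and overlapped the blastocysts, which ran from 113 to 231 CPM. Cdx2 and Gata3, defining factors of the lineage, overlapped between the crosses. Cdx2 stood at 23.2 and 10.4 CPM against 6.73, 11.1 and 14.7 CPM, and blastocysts began at 20.4 CPM, so only Gabpb1 morula 1 reached them. Gata3 stood at 211 and 89.9 CPM against 83.5, 34.8 and 99.8 CPM, with blastocysts from 158 CPM. Gata2, which had separate groups but did not pass the test (adjusted p = 0.327), was at 0 in Alyref morulae 1 and 2, at 7.64 CPM in the third and at 12.1 and 16.3 CPM in the Gabpb1 cross, all below the 17.9 CPM of the lowest blastocyst. Eomes overlapped, at 39.1 and 23.4 CPM against 4.62, 1.01 and 26.1 CPM, with blastocysts from 49.4 CPM. Hand1 ran the opposite way, at 1.35 and 1.06 CPM in the Gabpb1 cross and 15.7, 145 and 13.5 CPM in the Alyref cross, and blastocysts reached at most 1.47 CPM (adjusted p = 0.0671). In whole embryos, fewer cells of a type and less RNA per cell cannot be told apart.

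The polarity and uptake lists gave smaller medians. Of 14 compaction and polarity genes 11 had positive fold changes (47.8% of all genes tested) and 1 was called (1.18% called higher). The median was 0.58 (0.36 without Gabpb1 morula 1). Pard3, which encodes the apical scaffold PAR-3, stood at 70.4 and 123 CPM against 20.3, 10.5 and 48.0 CPM (log2 fold change 1.88, SE 0.41, adjusted p = 0.0361). Pard3 was not called on the stage axis either (log2 fold change 0.34, adjusted p = 0.321, edgeR's QL test). Its KO morulae ran from 32.1 to 76.2 CPM and its blastocysts from 55.9 to 74.8 CPM. Cdh1, encoding E-cadherin, overlapped at 200 and 97.4 against 59.7, 65.3 and 144 CPM. Of 9 tested uptake receptors and sugar transporters 7 had positive fold changes, with a median of 0.63 (1.00 without Alyref morula 3), and Fgfbp1, which encodes a secreted carrier of fibroblast growth factors, was called at 9.60 and 16.3 CPM against 1.09, 2.02 and 3.04 CPM (log2 fold change 2.66, SE 0.57, adjusted p = 0.0361). Fabp3, a fatty acid binding protein gene, stood at 2024 and 1764 CPM against 338, 343 and 1058 CPM and was not called (adjusted p = 0.121). The Hippo pathway list, which holds the kinases and coactivators that read cell position, had 14 tested rows, of which Lats2 takes 2 for separate gene models. Of these rows 4 were positive, both Lats2 rows among them, and 0 were called. At an unadjusted p under 0.05 there was 1, beside 4129 of the 18410 genes tested. The median over rows was -0.16, which became 0.20 under spike-in scaling and lay between -0.38 (without Gabpb1 morula 1) and -0.02 (without Gabpb1 morula 2) with any 1 embryo left out.

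**Figure D3:**
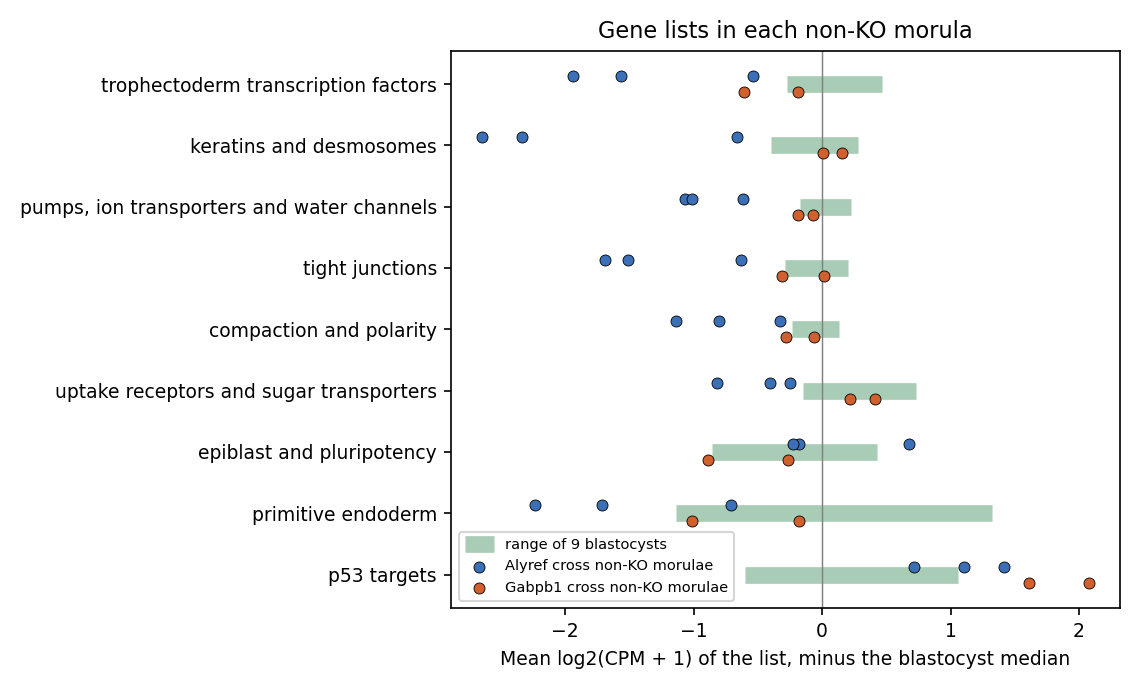
Mean log2(CPM + 1) over the genes of each list, minus the median of the 9 blastocysts (horizontal axis), for 2 Gabpb1 cross (orange) and 3 Alyref cross (blue) non-KO morulae; green bars span the 9 blastocysts and the vertical line marks their median. For keratins and desmosomes both Gabpb1 cross morulae lie inside the bar and the 3 Alyref cross morulae left of it, while for p53 targets both Gabpb1 cross morulae and Alyref cross morulae 1 and 2 lie right of it.

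All 14 tested epiblast and pluripotency genes had negative fold changes, against 51.6% of all genes tested, and 1 was called. The list did not fall as a whole along the stage axis. There 8 of the 14 were higher in blastocysts (49.2% of all genes tested), 4 were called higher and 2 called lower. Summed levels were 981 and 670 CPM in the Gabpb1 cross, 1506, 1198 and 1697 CPM in the Alyref cross and 899 to 1361 CPM in blastocysts. The groups were separate for 5 of the 14 (18.2% of all tested genes had separate groups in that direction), and for 3 by FPKM, which has no TMM scaling. The median was -0.97, moving to -0.55 without Alyref morula 3 and to -1.54 without Gabpb1 morula 1. Nanog stood at 171 and 89.2 CPM in the Gabpb1 cross and at 374, 284 and 361 CPM in the Alyref cross, so that here Alyref morula 3 was with its cross. It was called lower (log2 fold change -1.38, SE 0.28, adjusted p = 0.0334), and blastocysts ran from 69.5 to 165 CPM, below every Alyref cross embryo. For Nanog the KO morulae of the crosses were also apart, at 222, 153 and 205 CPM (Gabpb1 KO) against 511 and 478 CPM (Alyref KO). Esrrb, an orphan nuclear receptor of the same network, stood at 4.91 and 1.67 against 15.8, 18.4 and 17.9 CPM (adjusted p = 0.0504), and Klf2 at 14.2 and 19.2 against 27.2, 136 and 59.4 CPM (adjusted p = 0.0634). Pou5f1 (OCT4) stood at 86.7 and 69.8 against 135, 95.0 and 113 CPM (adjusted p = 0.252), and Sox2 and Fgf4 overlapped widely, Sox2 at 2.85 and 4.72 against 2.06, 0 and 20.4 CPM.

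Of 13 primitive endoderm genes 11 had positive fold changes (47.8% of all genes tested), 1 negative and Foxa2 had 0 counts in all 5 embryos. None was called, and 2 were at an unadjusted p under 0.05, beside 4129 of the 18410 genes tested. The median of 0.63 moved with each embryo left out, from 0.26 without Alyref morula 2 to 1.41 without Alyref morula 3. Gata6, which comes on first in this lineage, was the negative one, at 81.3 and 105 CPM against 120, 128 and 128 CPM. The laminin gene Lama1, a late basement membrane product, stood at 27.0 and 6.39 CPM against 0.05, 0 and 4.79 CPM, with 3.67 to 144 CPM in blastocysts. Of 12 listed genes of the transient two-cell programme 4 were tested and 0 were called. The list summed to 30.7, 166 and 0.97 CPM in Alyref morulae 1, 2 and 3 and to 1.14 and 1.75 CPM in the Gabpb1 cross. In KO morulae it summed to 7.92 to 54.8 CPM, and in blastocysts to at most 4.10 CPM. Its member Tcstv3 stood at 2.39, 148 and 0.19 CPM in the Alyref cross and at 0 and 0.15 CPM in the Gabpb1 cross. Of the maternal oocyte mRNAs 8 of 19 were tested, with a median of -0.52 (0.08 under spike-in scaling, -0.30 without Gabpb1 morula 1, -0.20 without Alyref morula 1 and -0.23 without Alyref morula 2). Nlrp4f was called higher in the Gabpb1 cross, at 13.02 and 31.3 against 1.14, 2.19 and 0.65 CPM (log2 fold change 4.07, SE 0.94, adjusted p = 0.0419). Gabpb1 cross blastocysts also had the higher Nlrp4f mean, 6.38 against 0.78 CPM, without passing the test. On the stage axis Nlrp4f was lower in blastocysts, not called (log2 fold change -1.38, adjusted p = 0.0593, edgeR's QL test).

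**Figure D4:**
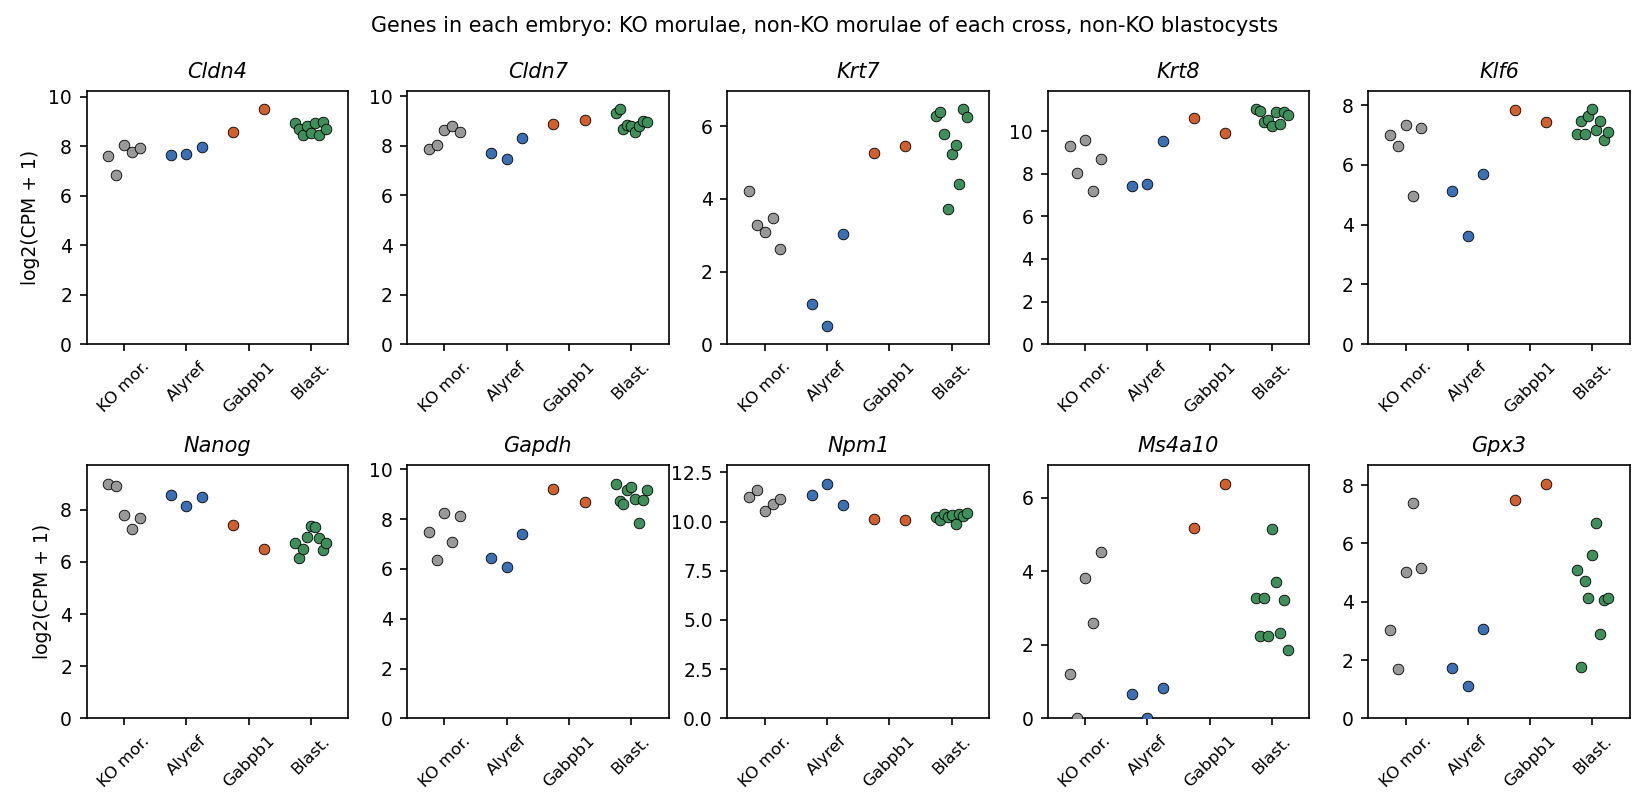
Level of 10 genes as log2(CPM + 1) (vertical axes from 0, 1 point per embryo) in 5 KO morulae (grey), 3 Alyref cross (blue) and 2 Gabpb1 cross (orange) non-KO morulae and 9 blastocysts (green). Cldn4, Cldn7, Krt7, Klf6 and Gapdh are higher and Nanog and Npm1 lower in both Gabpb1 cross morulae than in the 3 of the Alyref cross, and Ms4a10 and Gpx3 lie above all 9 blastocysts.

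Ribosome biogenesis held 16 of the 124 lower calls. This list was written after the called genes had been seen, so its counts are a description. All 40 genes had negative fold changes and 16 were called, against 51.6% negative and 0.674% called lower over all genes tested. The median was -0.80, and -0.31 with spike-in scaling. Summed levels were 6560 and 5653 CPM in the Gabpb1 cross, 12080, 14550 and 8886 CPM in the Alyref cross and 5837 to 7081 CPM in blastocysts. Gabpb1 morula 1 was within the blastocyst range, Gabpb1 morula 2 just under it and all 3 Alyref cross morulae above it, the third least so. Npm1, encoding the nucleolar chaperone nucleophosmin, stood at 1137 and 1068 CPM against 2598, 3906 and 1833 CPM (log2 fold change -1.33, SE 0.27, adjusted p = 0.0331). Polr1c, a subunit shared by RNA polymerases I and III, stood at 67.1 and 71.0 CPM against 207, 207 and 109 CPM (log2 fold change -1.34, SE 0.28, adjusted p = 0.0361). Genes for the cytosolic ribosomal proteins themselves had smaller differences: 85 of 90 were negative and 1 was called, with a median of -0.44 (-0.26 without Alyref morula 2), which turned to 0.09 with the spike-in scaling that put the median of all genes at 0.39.

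Promoters of this list were searched because GABP binds sites with the core CCGGAAG, which other ETS factors also recognise. RefSeq promoter windows (GRCm38.p6, 250 bases before to 50 after the start) were matched for 34 of the 40 genes. On either strand CCGGAAG was found in 13 of the 34 (38.2%), in 19.3% of the 9549 tested genes with a matched window and in 11.1% of 20050 matched windows of the genome. The other motifs searched were CACGTG (the E-box bound by MYC, 11.8% of the list against 10.2% of tested genes), GGAATG (TEAD, 8.8% against 12.1%), AGATAA (read by GATA factors, 2.9% against 6.8%) and GCCNNNGGC (AP-2, 26.5% against 24.0%). Windows were matched for 85.0% of the list but for only 52.0% of the genes tested, 65.6% of those called higher and 62.9% of those called lower, too few for a comparison, so the shares are descriptions of the matched windows. CCGGAAG was in 11.2% of the 143 matched windows of genes called higher and in 33.3% of the 78 of genes called lower. Of those 78 windows 13 belong to this list, itself written after the calls were seen, and 7 of the 13 hold the motif. The share of the lower genes is therefore not independent of the list, and a role of GABP was not tested. A match describes letters, not binding. The windows of the 3 called list members with CCGGAAG and the largest fall are shown with the match in capitals, with the windows of the raised claudin genes Cldn4, where the motif is absent, and Cldn7, where it lies further upstream. They lie at chr8:70302422-70302721 (Ddx49, minus strand), chr17:46247996-46248295 (Polr1c, minus), chr19:8735589-8735888 (Wdr74, plus), chr5:134946885-134947184 (Cldn4, minus) and chr11:69964529-69964828 (Cldn7, plus).
Ddx49: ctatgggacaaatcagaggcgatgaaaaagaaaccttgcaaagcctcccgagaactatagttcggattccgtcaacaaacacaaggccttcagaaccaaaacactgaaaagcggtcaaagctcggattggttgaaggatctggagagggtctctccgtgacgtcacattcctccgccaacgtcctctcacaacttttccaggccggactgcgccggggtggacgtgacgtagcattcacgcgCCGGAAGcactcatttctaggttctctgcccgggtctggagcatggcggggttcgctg
Polr1c: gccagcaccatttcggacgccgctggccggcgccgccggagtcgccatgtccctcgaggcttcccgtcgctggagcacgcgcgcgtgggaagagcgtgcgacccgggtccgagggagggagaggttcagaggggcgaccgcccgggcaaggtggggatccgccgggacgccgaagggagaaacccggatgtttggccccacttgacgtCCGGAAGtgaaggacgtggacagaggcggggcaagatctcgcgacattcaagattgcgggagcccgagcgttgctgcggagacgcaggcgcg
Wdr74: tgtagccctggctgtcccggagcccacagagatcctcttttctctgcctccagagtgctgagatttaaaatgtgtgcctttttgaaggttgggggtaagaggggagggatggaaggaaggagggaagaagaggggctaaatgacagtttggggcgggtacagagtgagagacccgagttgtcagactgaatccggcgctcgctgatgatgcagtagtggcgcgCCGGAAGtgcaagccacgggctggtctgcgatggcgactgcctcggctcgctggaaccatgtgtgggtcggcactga
Cldn4: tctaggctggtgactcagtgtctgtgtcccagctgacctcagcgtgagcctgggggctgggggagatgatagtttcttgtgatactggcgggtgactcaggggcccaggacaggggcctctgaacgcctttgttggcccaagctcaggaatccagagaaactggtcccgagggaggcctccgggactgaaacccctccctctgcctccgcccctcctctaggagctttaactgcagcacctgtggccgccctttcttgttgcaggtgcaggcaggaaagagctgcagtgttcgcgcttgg
Cldn7: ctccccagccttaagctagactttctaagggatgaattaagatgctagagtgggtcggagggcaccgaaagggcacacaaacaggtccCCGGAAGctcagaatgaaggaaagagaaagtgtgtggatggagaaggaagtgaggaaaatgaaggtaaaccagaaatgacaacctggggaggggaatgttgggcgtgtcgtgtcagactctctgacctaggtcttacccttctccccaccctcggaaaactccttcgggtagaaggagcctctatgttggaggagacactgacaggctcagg
Ddx49, an RNA helicase gene, stood at 47.5 and 30.4 CPM against 91.4, 164 and 57.2 CPM, and Wdr74, a large-subunit assembly factor whose reads can be shared with an overlapping readthrough gene, at 66.0 and 57.6 against 151, 208 and 98.8 CPM. The first base of the match was 8, 42 and 27 bases before the start in Ddx49, Polr1c and Wdr74, and 162 bases before it in Cldn7.

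Metabolic and membrane-binding genes were described by further lists written after the calls were seen. Of 14 tested glycolysis genes 12 had positive fold changes and 2 were called. Gapdh stood at 585 and 413 CPM against 85.5, 66.8 and 167 CPM (log2 fold change 2.23, SE 0.47, adjusted p = 0.0361), with blastocysts from 231 to 686 CPM. Pgk1, the next enzyme of the pathway, stood at 74.0 and 50.9 against 8.74, 11.4 and 23.1 CPM (2.11, SE 0.45, adjusted p = 0.0361). All 10 tested annexins, calcium-dependent membrane binding proteins, had positive fold changes and 3 were called. Anxa5 stood at 63.3 and 34.8 CPM against 2.82, 1.52 and 7.58 CPM (log2 fold change 3.62, SE 0.75, adjusted p = 0.0339). Glutathione and aldehyde enzymes had 20 of 21 positive and 8 called, with a median of 2.31, against 47.8% positive and 1.18% called higher over all genes tested. Of these, Gstp1 and Gstp2 are near-identical copies whose reads cannot be assigned with certainty.

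The largest called rises included genes that went beyond the blastocysts. Both Gabpb1 cross morulae stood above all 9 blastocysts for 65 of the 218 higher genes, and for 1226 of the 18410 tested. Since the 218 were called for higher levels in these same embryos, the larger share among them follows in part from that choice. Both were within the blastocyst range for 76 of the 218. Ms4a10, a membrane-spanning 4-domain family gene on chromosome 19, stood at 34.9 and 82.5 CPM against 0.60, 0 and 0.78 CPM, with blastocysts up to 34.3 CPM, just under Gabpb1 morula 1 (log2 fold change 6.91, SE 1.21, adjusted p = 0.0282). Gpx3, a secreted glutathione peroxidase gene, stood at 177 and 265 CPM against 2.34, 1.18 and 7.45 CPM, with blastocysts up to 104 CPM (5.90, SE 1.13, adjusted p = 0.0291). Neither gene was called on the stage axis, and KO morulae of the crosses were also apart for both. Gpx3 stood at 31.8, 167 and 34.9 CPM in Gabpb1 KO morulae and at 7.26 and 2.20 CPM in Alyref KO morulae. For Ms4a10 these levels were 13.2, 5.00 and 21.8 CPM against 1.32 and 0 CPM. Cldn4, Cldn7, Nanog and Npm1 were likewise apart between KO morulae, in the direction of the non-KO morulae. Npm1 stood at 1504, 1884 and 2247 CPM in Gabpb1 KO morulae and at 2419 and 3064 CPM in Alyref KO morulae. Krt7, Krt8, Klf6 and Gapdh overlapped between them. These differences between KO morulae were not tested. Oxt, which encodes the oxytocin precursor, stood at 7.40 and 44.0 CPM against 0.60, 0.51 and 2.46 CPM (4.42, SE 0.95, adjusted p = 0.0361). Oxt ran against the stage axis, being lower in blastocysts than in KO morulae by a log2 fold change of -2.75 (adjusted p = 0.00184). Ugdh, which makes UDP-glucuronate for matrix polysaccharides, stood at 152 and 352 CPM against 10.2, 13.3 and 45.3 CPM (3.46, SE 0.52, adjusted p = 0.0222); its row overlaps another gene model on the same strand. The other rises of the 12 were Cd81, Gpa33, Prss32, Ndrg1, Tmem171, Lgals3, Hpcal1 and Anxa5, with log2 fold changes from 3.15 to 4.71. All of these except Cd81 were also called higher in blastocysts than in KO morulae. Ndrg1, a stress-responsive gene with an antisense gene over it, stood at 144 and 75.8 CPM against 2.55, 4.13 and 17.9 CPM and at 99.7 to 461 CPM in blastocysts.

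Targets of p53, the stress and damage response factor, lay above the blastocysts in most of the morulae, and none was called. Of 13 genes 12 had positive fold changes (47.8% of all genes tested). Separate groups with the Gabpb1 cross higher were found for 7 (17.9% of all genes tested). At an unadjusted p under 0.05 there were 4, beside 4129 of the 18410 genes tested. The median was 0.66 (1.23 with spike-in scaling). The mean log2(CPM + 1) of the list was 6.30 and 6.77 in the Gabpb1 cross, 5.80, 6.10 and 5.41 in the Alyref cross, 5.72 to 6.29 in KO morulae and 4.09 to 5.75 in blastocysts. Both Gabpb1 cross morulae and Alyref morulae 1 and 2 were thus above every blastocyst, and Alyref morula 3 was within their range. Gene by gene, 4 and 0 of the 13 were within the blastocyst range in the Gabpb1 cross and 7, 4 and 11 in the Alyref cross. On the stage axis 9 of the 13 were called lower in blastocysts. Ccng1 (cyclin G1) stood at 438 and 607 CPM against 241, 328 and 252 CPM, with blastocysts from 72.9 to 336 CPM. Cdkn1a, encoding the cell cycle inhibitor p21, overlapped at 154 and 424 against 185, 329 and 132 CPM.

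Of the 12 largest called falls 8 carry provisional or pseudogene names. Among the others, Pdxk, which encodes pyridoxal kinase, stood at 113 and 84.7 CPM in the Gabpb1 cross and 645, 1209 and 315 CPM in the Alyref cross (log2 fold change -2.87, SE 0.61, adjusted p = 0.0361), with blastocysts from 48.1 to 140 CPM. Timm8a1, a mitochondrial import chaperone gene on the X chromosome, stood at 41.4 and 61.7 CPM against 499, 330 and 114 CPM (-2.61, SE 0.64, adjusted p = 0.0498). Rhebl1, a small GTPase gene of the Rheb family, stood at 19.6 and 11.1 against 97.6, 74.3 and 38.9 CPM (-2.19, SE 0.47, adjusted p = 0.0361). In each, Alyref morula 3 was the lowest of its cross and still above both Gabpb1 cross embryos. Gm44693 stood at 0.07 and 0 CPM, that is 1 and 0 counts, against 2.99, 53.3 and 1.29 CPM. The others were Gm5745, Rpl36-ps8, Gm14131, Lst1, 2610044O15Rik8, 2810013P06Rik, Gm31659 and Gm10110, with log2 fold changes from -4.54 to -2.05. Pseudogenes and repeated gene families among them share sequence with other loci, so their counts are uncertain.

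No gene was called between blastocysts of the same crosses. With 3 embryos a cross, 0 of 18410 genes were called between Gabpb1 cross and Alyref cross non-KO blastocysts by edgeR's QL test with BH (0%; 646 at an unadjusted p under 0.05, smallest adjusted p 0.291). The genes called in morulae had a median log2 fold change between blastocysts of 0.10 for the 218 higher and -0.03 for the 124 lower, and 60.1% and 57.3% kept their sign, against 50.4% of all genes. Across all genes the cross difference in blastocysts had a Pearson's r of 0.04 with the cross difference in morulae. The difference between the morula and blastocyst contrasts was itself called for 1 gene, Wls (0.00543%).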

How the data were processed

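PolyA RNA of single embryos was reverse transcribed with ERCC spike-in RNA, amplified over 16 PCR cycles and sequenced as paired reads of 50 and 25 bases, per the labels' protocols. The authors deposited 1 table whose name announces FPKM but whose values are whole-number counts per gene, with totals that differ between embryos. It holds 53379 gene rows and 92 ERCC rows for 19 embryos. Trimmomatic, Trim Galore, cutadapt, STAR and featureCounts and the build mm10 are named without versions in the submitters' processing notes, and the strand setting is not given in the sources used here. Coordinates match GENCODE M21.

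For filtering, counts were turned into FPKM with the deposited gene lengths, and genes reaching an FPKM of 1 in 2 or more of all 19 embryos were tested (18410 of 39262 with any count). edgeR 4.0.16 in R 4.3.3 was run with TMM scaling and the quasi-likelihood test on all 19 embryos with 1 mean for each of the 7 groups, and p-values were adjusted by Benjamini-Hochberg over all genes tested. A gene was called at an adjusted p under 0.05. CPM use TMM-scaled gene totals. Counts of list members with separate groups use CPM, a choice made after the data were seen. SE is the log2 fold change over the square root of F. The fit was also run on simulated data with 200 changed genes. These counts were drawn with the spread estimated by this same fit and no batch. That run therefore cannot speak to batch or to the limits of the calls given above. Named genes are the 12 largest called rises and falls with groups separate in FPKM and a mean FPKM of 5 or more, called list members and a fixed set of lineage, junction and pump genes. Further list members, and the 4 lists of ribosome biogenesis, glycolysis, annexins and glutathione enzymes, were chosen after their values were seen. One gene of the fixed set is not reported here. The members, lists and rules were chosen with earlier results of these data known. Overlapping and antisense genes cannot be told apart where strand was not counted. Without molecular identifiers, PCR copies are counted as if they were separate molecules. Alternatives used DESeq2 1.42.0 and limma 3.58.1 among others, and figures matplotlib 3.10.9. Embryos of equal number were not treated as pairs, since the labels do not tie them. Their deviations from the group means had r of -0.07 and 0.00 for numbers 1 and 2. With 2 Gabpb1 cross embryos these deviations mirror each other, so the r cannot decide whether embryos share a batch.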

Additional observations from a re-analysis of the deposited data

Results flagged for a closer look

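Wls, which encodes the carrier protein that WNT ligands need for secretion, was the 1 gene whose difference between the crosses itself differed between morulae and blastocysts, by 7.72 on the log2 scale (SE 1.01, adjusted p = 0.0218, edgeR's QL test of the difference with BH). Wls stood at 41.3 and 15.2 CPM in the Gabpb1 cross non-KO morulae and at 0.43, 0.08 and 0.45 CPM in those of the Alyref cross, that is 8, 1 and 7 counts. In blastocysts the embryos of the crosses overlapped, at 3.79, 4.74 and 10.1 CPM in the Gabpb1 cross and 16.0, 25.998 and 6.36 CPM in the Alyref cross, and the lower mean of the Gabpb1 cross did not pass the test (log2 fold change -1.37, SE 0.61, adjusted p = 1). With the replicate number as a block the smallest adjusted p of this comparison was 0.0942.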

How the results depend on the processing

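The 342 genes called between the non-KO morulae became 2 with spike-in scaling (100% higher against 63.7%), 1709 with DESeq2's Wald test (53.5% higher), 683 with limma on log2(FPKM + 1) (75% higher), 2712 with limma voom and embryo weights, and 0 with the 5 morulae alone. Leaving out 1 embryo gave from 0 to 2435, and an arm left with 1 embryo is assumed to vary like the other groups. Other settings gave 260 to 468 genes. With the replicate number as a block the count was 327, sharing 255 genes with the 342. The difference between the morula and blastocyst contrasts then had 0 genes in place of 1. The labels do not pair embryos by number. Thinning every library to an equal depth, added after the data were seen, gave 346. The cause of these changes was not tested. The stage position difference ranged from 0.39 to 0.53 over other axes and scalings and from 0.33 to 0.71 with 1 embryo left out, and the spike-in ratio difference from 0.07 to 0.76. List medians also moved by over 1.5 times with voom weights, to 2.56 for keratins and desmosomes, 1.68 for trophectoderm factors and 1.49 for pumps and channels, and with limma on log2(FPKM + 1), to 0.61 for trophectoderm factors and -0.20 for maternal mRNAs, with thinning to -0.16 for maternal mRNAs and with the block to 0.95 for primitive endoderm, and the Hippo median lay between -0.27 and 0.20 over settings with all 5 morulae. Fold changes of 81 genes were followed through 16 settings. Called genes were chosen in these same embryos and had separate groups, so they could hardly change sign, and 0 did. Some not called did: under spike-in scaling Gata6 became 0.015, Tfap2c 0.32, Tjp1 0.17, Fgf4 0.063 and Aqp3 0.59; with limma on log2(FPKM + 1) Sox2 became 0.022 and Aqp3 0.13; with voom weights Sox2 became 1.01, Fgf4 1.31 and Gabpb1 -0.11; with the block Sox2 became 0.050. With 1 embryo left out the lowest and highest values were -0.058 and 1.10 for Cdx2, -0.26 and 0.39 for Alyref, -0.17 and 0.28 for Gabpb1, -0.43 and 0.35 for Aqp3, -1.53 and 1.80 for Sox2 and -0.87 and 0.072 for Fgf4. With 2 and 3 embryos, small differences are beyond these libraries.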
